A study of Homo sapiens with 9 samples.

Results

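The regions described here are the stretches of chromosomes 16 and 20 that lay under DRIP-seq peaks in SH-SY5Y cells, an established human neuroblastoma line. Peaks of the 6 libraries made without RNase H were merged wherever they touched or overlapped, and a merged region was kept when at least 2 libraries had a peak in it. This gave 4508 regions, 2667 on chromosome 16 and 1841 on chromosome 20, of 60938 regions kept by the same criterion over chromosomes 1 to 22 and X and of 99429 merged regions in all. Both chromosomes were chosen by their share of covered length in these same libraries, which was higher in the TDP-43 knockdown than in the control. That share is therefore given as a description, with no test.

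The study asked, by its title, how R-loops change under stable loss of TDP-43, an RNA- and DNA-binding protein that controls splicing. All cells carried a lentiviral short hairpin transgene, either a negative control (shNC) or one against TDP-43 (shTDP43), and both lines went through puromycin selection, 2 weeks at 2 µg/mL, before maintenance at 1 µg/mL. Each genotype gave 3 libraries without RNase H and 1 library from material treated with RNase H for 6 h, each from 6 µg of nucleic acid cut with 5 restriction enzymes. An input library was not analysed here. The sample titles number the replicates and name neither separate harvests nor separate transductions, so p-values measure only the spread between these libraries.

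An R-loop forms when a transcript pairs with the template strand of its gene and leaves the other DNA strand unpaired. R-loops are known for GC-rich starts and ends of active genes, and DRIP-seq recovers them with S9.6, an antibody against DNA:RNA hybrids. RNase H removes the RNA of such hybrids and serves as the control of the assay. Chromosome 16 carries a very gene-rich short-arm end with the alpha-globin genes, PKD1 and TSC2, and chromosome 20 carries a gene-rich long-arm end with RTEL1 and LAMA5.

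Promoter sequences are shown for genes whose covered length is described below, because the peaks of these genes differed in whether they touched the start site. The sequences are from RefSeq (GRCh38.p14), which shares its chromosome coordinates with the hg38 build of the peak lists, and 995 coding genes of chromosomes 16 and 20 matched the promoter table. Each is written 5′ to 3′ on the strand of the gene, with the 250 bases before the start in lower case and the first 50 transcribed bases in capitals. LUC7L lies at chr16:229400-229699 on the minus strand, SPIRE2 at chr16:89828225-89828524 on the plus strand, FANCA at chr16:89816598-89816897 on the minus strand, GSE1 at chr16:85613072-85613371 on the plus strand, and RIPOR3 at chr20:50636744-50637043 on the minus strand.
LUC7L: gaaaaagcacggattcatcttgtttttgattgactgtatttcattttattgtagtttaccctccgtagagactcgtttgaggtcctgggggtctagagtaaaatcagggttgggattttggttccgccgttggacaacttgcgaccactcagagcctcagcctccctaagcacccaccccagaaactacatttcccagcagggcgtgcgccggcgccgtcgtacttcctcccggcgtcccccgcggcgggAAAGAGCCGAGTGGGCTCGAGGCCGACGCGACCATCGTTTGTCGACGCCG
SPIRE2: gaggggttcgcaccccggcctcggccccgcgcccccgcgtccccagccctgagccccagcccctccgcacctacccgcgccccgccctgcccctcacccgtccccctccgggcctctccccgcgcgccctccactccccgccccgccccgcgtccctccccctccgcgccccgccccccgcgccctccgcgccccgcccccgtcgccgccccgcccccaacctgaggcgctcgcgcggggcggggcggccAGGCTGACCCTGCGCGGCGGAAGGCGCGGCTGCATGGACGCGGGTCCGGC
FANCA: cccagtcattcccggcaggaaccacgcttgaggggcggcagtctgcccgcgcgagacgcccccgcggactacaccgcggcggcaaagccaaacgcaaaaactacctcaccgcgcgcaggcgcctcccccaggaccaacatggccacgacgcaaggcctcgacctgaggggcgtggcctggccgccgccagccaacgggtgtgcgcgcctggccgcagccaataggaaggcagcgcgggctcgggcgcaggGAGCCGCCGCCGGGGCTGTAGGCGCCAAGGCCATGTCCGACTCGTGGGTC
GSE1: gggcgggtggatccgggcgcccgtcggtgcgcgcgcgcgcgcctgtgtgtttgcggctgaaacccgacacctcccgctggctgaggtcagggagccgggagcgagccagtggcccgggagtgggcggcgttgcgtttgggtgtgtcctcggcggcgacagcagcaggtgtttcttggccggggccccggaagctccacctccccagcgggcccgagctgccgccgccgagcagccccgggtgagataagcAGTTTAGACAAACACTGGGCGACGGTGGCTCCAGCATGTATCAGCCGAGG
RIPOR3: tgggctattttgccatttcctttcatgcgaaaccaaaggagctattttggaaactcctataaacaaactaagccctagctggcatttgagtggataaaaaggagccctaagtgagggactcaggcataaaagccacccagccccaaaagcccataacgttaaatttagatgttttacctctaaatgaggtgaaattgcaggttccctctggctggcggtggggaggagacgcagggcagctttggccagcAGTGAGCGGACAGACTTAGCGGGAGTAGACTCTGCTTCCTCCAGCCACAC

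The SPIRE2 window held 85.0% G and C and 46 CpG steps, and peaks covered all 300 bases in each untreated library. The GSE1 window, at 71.0% and 34 steps, was also fully covered in all 6. FANCA had 72.3% G and C and 37 CpG steps. Its cover was 110, 194 and 0 bases in shNC replicates 1 to 3 and 300, 300 and 178 bases in shTDP43, which overlap. RIPOR3, at 49.3% and 6 steps, had no peak over its listed start in any library. The LUC7L window held 56.3% G and C, and peaks covered the same 208 of its bases in all 6 libraries. The windows were searched for the sites of the 5 enzymes named in the protocol. BsrGI recognises TGTACA, the enzyme EcoRI recognises GAATTC, the enzyme HindIII recognises AAGCTT, the enzyme SspI recognises AATATT and the enzyme XbaI recognises TCTAGA. Each reads the same on both strands, and matches were allowed to overlap each other. Of the 5 printed windows, the LUC7L window holds a match, to the XbaI site, from base 92 of the window, with its low-coordinate end at chromosome 16 position 229603. The LUC7L start-site region ended at 229607, inside that site. At least 1 of the 5 sites is found in 14.1% of all promoter windows on chromosomes 16 and 20 and in 18.6% of those on the other autosomes.

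Over all 1334 windows of chromosomes 16 and 20 (several start sites for some genes), 49.1% lay under a peak in all 6 libraries, compared with 37.9% of 19821 windows on the other autosomes. The share was higher on chromosomes 16 and 20 in each library, from 51.4% against 40.2% in shTDP43 replicate 1 to 63.5% against 52.0% in shNC replicate 1. Windows with a peak in all 6 libraries had a median G plus C content of 68.7% and 30 CpG steps. Windows without any peak had 59.3% and 9, so G and C content moved with peak presence. On the other autosomes the corresponding medians were 67.0% and 53.7%. A run of GGGG on either strand was found in 96.7% of all windows on chromosomes 16 and 20 and in 93.3% of those elsewhere, so nearly every window held one.

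**Figure D1:**
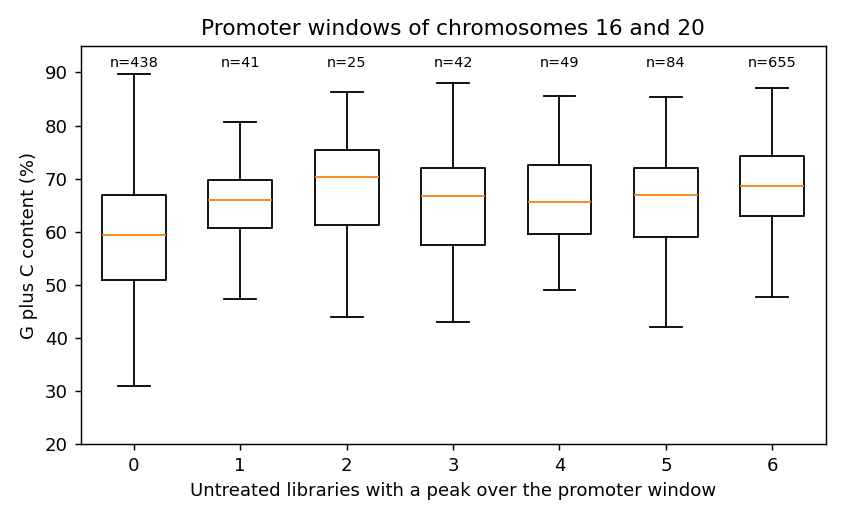
G plus C content (percent) of the 1334 promoter windows of chromosomes 16 and 20, by the number of untreated libraries with a peak over the window. Boxes give the quartiles and median, whiskers reach at most 1.5 times the box height, and points beyond them are not drawn. The median was 59.3% without a peak and 68.7% with a peak in all 6 libraries.

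The 4508 regions covered 14.5 Mb, 9.13 Mb on chromosome 16 and 5.36 Mb on chromosome 20. Their median width was 1478 bp, with a range from 289 to 94238 bp. The 1902 regions with a peak in all 6 libraries made up 81.6% of that length, against 77.4% for the same class on the other autosomes. At the edge of the criterion, the 582 and 463 regions present in exactly 2 libraries had median widths of 543 bp on chromosome 16 and 575 bp on chromosome 20. The 1555 and 1181 regions seen in only 1 library, which were left out, had medians of 364 and 365 bp.

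The longest region of all, at chr16:641762-735999, ran across 13 small coding genes from MCRIP2 to CIAO3, among them STUB1, a ubiquitin ligase that acts with chaperones, and RHOT2, a mitochondrial GTPase. Its covered length was 94.2, 93.7 and 93.7 kb in shNC replicates 1 to 3 and 92.2, 93.6 and 94.0 kb in shTDP43. It was thus covered almost end to end in both genotypes. The next longest lay in GSE1, a gene for a chromatin-associated coiled-coil protein, at chr16:85604938-85672947, and its shNC values were 65.4, 65.6 and 65.9 kb, against 57.4, 65.3 and 66.8 kb in shTDP43. On chromosome 20 the longest, at chr20:33637483-33688064, joined CBFA2T2, a transcriptional corepressor gene, to E2F1, a cell cycle transcription factor gene. It held 50.6, 50.6 and 49.3 kb in shNC and 45.2, 49.8 and 50.01 kb in shTDP43. In the GSE1 region and the E2F1 region shTDP43 replicate 1 was the lowest of the 6 libraries.

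The untreated lists held 57204 to 73353 peaks on the chromosomes used. Peaks covered 91.6 Mb in shTDP43 replicate 1 and 125 to 142 Mb in the other 5 libraries. The background pileup solved from the peaks, a relative depth, was 1.05 in shTDP43 replicate 1 and 1.62 to 2.01 in the others. Of 8 adrenergic neuroblastoma genes listed as markers of the cell line, 7 had peaks, including GATA2, GATA3 and DBH. TH, which makes the catecholamine precursor, had none. The summed length of these 8 genes was 89.6 to 92.6 kb over the 6 libraries. Most coding genes of both chromosomes described here, 1061 of 1391, also had a peak. The count of 7 of 8 therefore does not identify the cell line. The deposited lists hold no read counts, so the depth behind a single region is unknown.

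Chromosome 16 held 5.48%, 5.48% and 5.48% of covered length in shNC replicates 1 to 3 and 5.96%, 5.77% and 5.65% in shTDP43. Their means, 5.48% ± 0.0035 and 5.80% ± 0.154 (SD, n = 3), lay 0.32 percentage points apart. Without shTDP43 replicate 1 the difference was 0.23. Chromosome 20 held 3.10%, 3.08% and 3.10% in shNC and 3.24%, 3.29% and 3.22% in shTDP43, a difference of 0.15 points. On neither chromosome did the genotypes overlap, and among the 23 chromosomes the same held in that direction only for chromosome 17, while 5 lay lower in every shTDP43 library. Mean shares were also higher in shTDP43 on the gene-dense chromosomes 17, 19 and 22, by 0.19, 0.54 and 0.079 points. On chromosomes 19 and 22 the genotypes overlapped. In unscaled length the genotypes overlapped: chromosome 16 carried 7.77, 7.12 and 6.88 Mb in shNC and 5.46, 7.41 and 7.40 Mb in shTDP43, and chromosome 20 carried 4.41, 4.00 and 3.89 Mb and 2.97, 4.22 and 4.21 Mb.

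**Figure D2:**
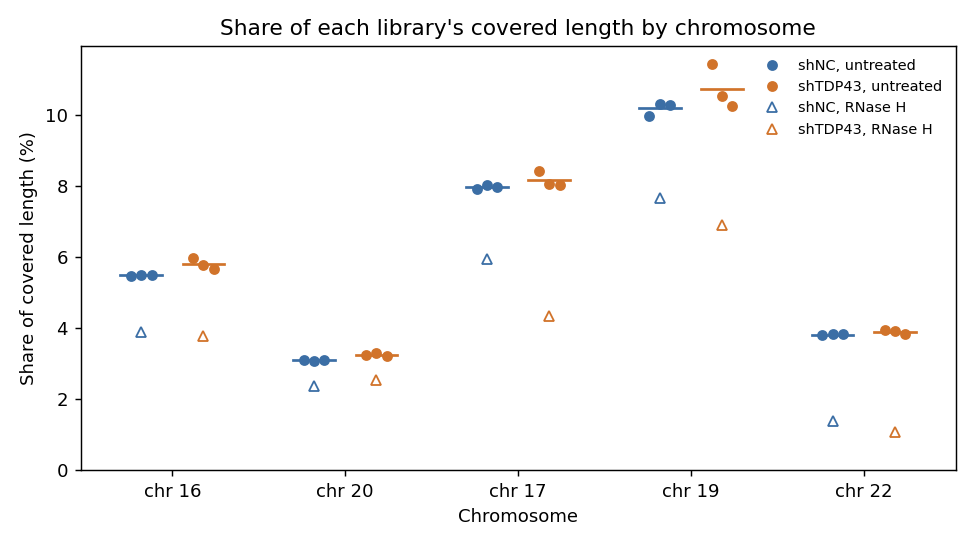
Share of each library's covered length (percent) on chromosomes 16 and 20 and on the gene-dense chromosomes 17, 19 and 22. Filled points are untreated libraries, lines their group means, and open triangles the RNase H libraries. On chromosome 16 the shTDP43 points lie between 5.65% and 5.96%, above the shNC points at 5.48%.

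The chromosome 20 difference was smaller once peaks also called after RNase H were set aside. This step removed more cover from shNC than from shTDP43. With untreated peaks set aside wherever the treated list of the same genotype had an overlapping peak, chromosome 20 held 3.23%, 3.27% and 3.27% in shNC and 3.26%, 3.31% and 3.23% in shTDP43. The difference was then 0.010 points and the genotypes overlapped. For chromosome 16 it was still 0.26 points, with no overlap. The treated lists differed in length, 15504 peaks in shNC and 8868 in shTDP43, and the step left 76.4% to 76.8% of covered length in shNC libraries but 85.3% to 86.3% in shTDP43 libraries. With 1 treated library per genotype, the part of this imbalance in the result was not tested.

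In the RNase H libraries, 3.90% (shNC) and 3.78% (shTDP43) of covered length lay on chromosome 16, and 2.37% and 2.53% on chromosome 20. Of the 4508 regions, 298 (6.61%, 95% Wilson interval 5.92 to 7.37) overlapped a treated shNC peak and 220 (4.88%, 4.29 to 5.55) a treated shTDP43 peak. On the other autosomes the shares were 7.88% and 4.95%. Intervals cover counting error only. The regions hit were long, with medians of 5206 bp in shNC and 4159 bp in shTDP43, against 1406 and 1437 bp for those not hit. LAMA5, a laminin chain of basement membranes, kept 11.8 kb in treated shNC and 7.45 kb in treated shTDP43, from 53.8, 52.4 and 52.0 kb and 48.6, 53.7 and 53.8 kb. The MCRIP2 to CIAO3 region kept 12.02 and 6.38 kb. JPH3, a junctional membrane protein gene of neurons, had no treated peak, from 48.4, 49.9 and 43.9 kb in shNC and 39.02, 54.7 and 54.8 kb in shTDP43.

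The strongest peaks differed in kind between treated and untreated lists. By the fold enrichment that the authors' peak caller gave, which ranks peaks within a list, the CDT1, APRT and GALNS locus or the MAPK8IP3 to NUBP2 locus led chromosome 16 in every untreated library. CDT1 encodes a DNA replication licensing factor. On chromosome 20 the leading peak lay at GNAS, which encodes the stimulatory G protein alpha subunit, in 4 libraries, at SRSF6, a splicing factor gene, in shNC replicate 3, and at PCIF1 and ZNF335 in shTDP43 replicate 1. In the treated libraries the leading peak of each chromosome lay outside any annotated gene and in the same place in both genotypes. In treated shNC these peaks were at chr16:20010570-20012428, with a fold enrichment of 98.4, and chr20:21910115-21911001, with 84.7, and in treated shTDP43 their fold enrichments were 65.1 and 105.

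Covered length was concentrated in few 1 Mb bins, and largely in the same places in both genotypes. On chromosome 16, 11 of 91 bins held 50% of the covered length in shNC and 10 in shTDP43, and on chromosome 20 it took 9 of 65 bins in each. Across bins, covered length went with the number of coding genes, with Spearman's rho of 0.88 in both genotypes over the 143 bins with a peak or the midpoint of a coding gene. This is a description across bins of shared libraries, which are not independent replicates.

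The bin at 2 to 3 Mb of chromosome 16, with the midpoints of 40 coding genes, held the largest share of that chromosome, 7.13% in shNC and 7.30% in shTDP43. Peaks covered 530, 520 and 501 kb of it in shNC and 442, 512 and 509 kb in shTDP43. Its longest covered genes were PKD1, the main gene of polycystic kidney disease, and TSC2, which encodes tuberin, a brake on mTOR signalling. PKD1 was covered over 46.0, 46.4 and 45.3 kb in shNC and 45.1, 46.03 and 46.03 kb in shTDP43, which is 93.3% and 93.0% of its window. TSC2 had 40.6, 40.1 and 40.2 kb in shNC and 36.3, 41.1 and 41.0 kb in shTDP43. For both genes the genotypes overlapped.

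The bin at 67 to 68 Mb came next, with SLC12A4, a potassium chloride cotransporter gene, and RANBP10. SLC12A4 was covered over its whole window of 27.2 kb in all 3 shNC libraries and over 23.1, 26.2 and 26.2 kb in shTDP43. The bin at 30 to 31 Mb held SRCAP, a chromatin remodeller gene, and SETD1A, a histone H3 methyltransferase gene. SETD1A had 27.4, 27.1 and 27.4 kb in shNC and 27.1 kb in each shTDP43 library. On chromosome 20, the bins at 63 to 64 Mb and 62 to 63 Mb led, with 8.79% and 8.42% of that chromosome in shNC and 9.77% and 8.57% in shTDP43. RTEL1, a telomere helicase gene in the first of these bins, was covered over 28.9, 27.6 and 26.4 kb in shNC and 24.9, 30.7 and 29.9 kb in shTDP43.

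The higher share of shTDP43 was spread over many bins. On chromosome 16, 50 bins were higher and 28 lower, and the 5 bins with the largest positive difference summed to 53.0% of the net difference. These were the bins starting at 0, 30, 2, 1 and 89 Mb. On chromosome 20, 38 bins were higher and 24 lower, and the top 5 summed to 66.9%. They started at 63, 62, 0, 50 and 64 Mb. With shTDP43 replicate 1 left out, the chromosome 16 differences went from 0.042 to 0.027 points at 0 Mb, from 0.035 to 0.013 at 30 Mb, from 0.032 to 0.0027 at 2 Mb and from 0.030 to 0.019 at 1 Mb. On chromosome 20 they went from 0.045 to 0.025 at 63 Mb and from 0.018 to 0.0059 at 62 Mb. The chromosome ends were prominent among them: the first 5 Mb of chromosome 16 held 1.37% ± 0.035 of all covered length in shNC and 1.52% ± 0.127 in shTDP43, and the last 3 bins of chromosome 20 held 0.557% ± 0.013 and 0.629% ± 0.062 (SD, n = 3). These blocks were chosen after their values were seen. Without shTDP43 replicate 1 the difference for the first block went from 0.15 to 0.075 points and that for the second from 0.072 to 0.037. In unscaled length the genotypes overlapped in both blocks, and the shTDP43 means were not higher. The first block had means of 1.82 Mb in shNC and 1.76 Mb in shTDP43, and the second 0.737 and 0.727 Mb.

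**Figure D3:**
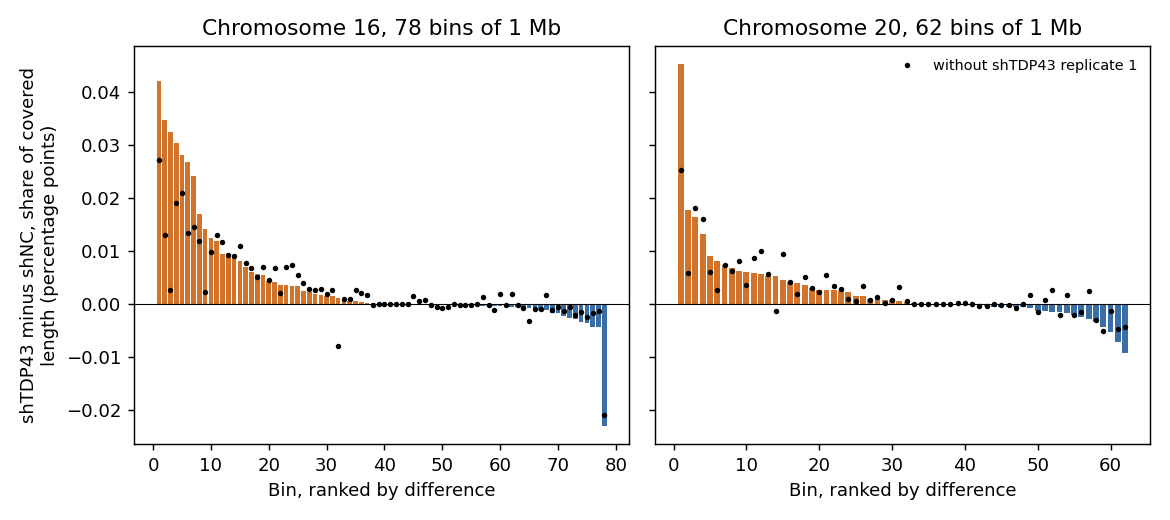
Difference in share of all covered length (percentage points, shTDP43 minus shNC) for each 1 Mb bin with a peak, ranked within its chromosome. Bars use all 6 untreated libraries, and black points leave out shTDP43 replicate 1. The highest bar of chromosome 20 is the bin with RTEL1, at 0.045 points, or 0.025 without that library, and the lowest of chromosome 16 is the GSE1 bin, at -0.023.

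Split at the widest stretch without coding genes, chromosome 16 differed by 0.23 points on its short-arm side and 0.083 points on its long-arm side. The short-arm value was 0.15 without shTDP43 replicate 1. The shNC libraries held 2.81%, 2.86% and 2.85% on the short-arm side and the shTDP43 libraries 3.24%, 3.04% and 2.95%. On chromosome 20 the long-arm side differed by 0.12 points and the short-arm side by 0.032. The chromosome 20 long-arm side held 2.35%, 2.33% and 2.35% in shNC and 2.45%, 2.49% and 2.46% in shTDP43. The genotypes did not overlap on any of the 4 sides. Both chromosomes were picked by this share and other chromosomes were not split in this way, so nothing is read from this. Regions with a peak in all 6 libraries differed by 0.41 points on chromosome 16 and 0.17 on chromosome 20, or by 0.20 and 0.085 without shTDP43 replicate 1, while regions with peaks in 2 to 5 libraries were lower in shTDP43 by 0.083 and 0.024 points. Those lower values turned to 0.030 and 0.053 points higher without shTDP43 replicate 1.

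In the test over all 1 Mb bins (limma on log2 of covered length scaled to the library total, adjusted p under 0.05), 6 of 108 bins on chromosomes 16 and 20 had more cover in shTDP43 and 1 had less. Over all 1841 bins tested, 1.41% were called with more cover and 5.21% with less. The contrast is the one that picked the chromosomes, so nothing is read from these counts. Without shTDP43 replicate 1 the counts were 18 and 2, and without scaling 1 and 0. Leaving out any 1 of shNC replicates 1 to 3 or shTDP43 replicate 2 left 1 to 3 bins with more cover.

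The bin at 61 to 62 Mb of chromosome 20 rose from 12.4, 10.97 and 8.07 kb in shNC to 13.8, 21.9 and 17.8 kb in shTDP43. The log2 change was 0.89 ± 0.15 (SE, limma adjusted p = 0.0069). All shTDP43 libraries lay above all shNC libraries before any scaling. CDH4, a cadherin gene of the nervous system, fills much of this bin (chr20:61252261-61940617) but had 0, 0.040 and 0 kb in shNC and 0.522, 2.59 and 0.811 kb in shTDP43. The region of the bin with the largest difference, chr20:61961252-61967103, lay between CDH4 and TAF4, a gene for a subunit of the general transcription factor TFIID, and had 4.05, 2.49 and 2.76 kb in shNC and 4.24, 5.85 and 5.24 kb in shTDP43. Regions named within bins here were chosen after their values were seen.

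The last bin of chromosome 16, at 90 to 91 Mb, holds DBNDD1 and DRC4 and rose by 1.05 ± 0.21 (limma adjusted p = 0.0183), from 9.96, 5.73 and 4.76 kb to 8.67, 16.9 and 14.1 kb. Its region at chr16:90004504-90008019, in DBNDD1, had 1.45, 0.986 and 0.803 kb in shNC and 2.02, 3.20 and 2.52 kb in shTDP43, with no overlap. The bin at 54 to 55 Mb, with the developmental homeobox genes IRX3 and IRX5, rose by 0.57 ± 0.13 (limma adjusted p = 0.0298), from 16.6, 14.5 and 12.2 kb to 16.4, 18.3 and 23.2 kb. The region over IRX5 was near constant, with 6.40, 6.33 and 6.33 kb in shNC and 6.72, 6.46 and 6.75 kb in shTDP43, while one beyond it, at chr16:54937983-54942206, had 1.73, 0.881 and 1.02 kb and 1.03, 3.79 and 4.09 kb. In both the DBNDD1 and the IRX3 bin the unscaled genotypes overlapped through shTDP43 replicate 1.

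The first bin of chromosome 20 holds CSNK2A1, the casein kinase 2 catalytic subunit gene, and SCRT2, a neural zinc finger repressor gene, and rose by 0.44 ± 0.085 (limma adjusted p = 0.0147). Its cover was 72.2, 60.6 and 51.03 kb in shNC and 54.4, 85.9 and 80.5 kb in shTDP43. The SCRT2 region, chr20:659966-668808, had 5.86, 2.62 and 2.77 kb and 4.06, 6.45 and 7.30 kb. The bins at 50 to 51 Mb and 64 to 65 Mb also passed, with log2 changes of 0.20 ± 0.049 and 0.44 ± 0.11 (limma adjusted p = 0.0429 and 0.0487). The 50 Mb bin had 124, 115 and 112 kb in shNC and 88.25, 133 and 138 kb in shTDP43, which overlap. Its change is near the 0.20 that equal cover in all 6 libraries takes from the scaling. The 64 Mb bin, with PRPF6, a spliceosome gene, and TCEA2, had 36.03, 32.01 and 28.3 kb in shNC and 36.1, 40.1 and 38.6 kb in shTDP43. TCEA2, a transcription elongation factor gene, had 8.10 kb in all 6 libraries, and the regions of the bin with the largest differences lay in PRPF6, where chr20:64012824-64019177 had 5.60, 3.12 and 2.75 kb in shNC and 5.82, 5.94 and 5.66 kb in shTDP43.

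The GSE1 bin at 85 to 86 Mb of chromosome 16 fell by 0.20 ± 0.043 on the log2 scale (limma adjusted p = 0.0265). Its cover was 255, 235 and 218 kb in shNC and 138, 196 and 212 kb in shTDP43, so every shTDP43 library was below every shNC library. Within GSE1, the region chr16:85519596-85525799 had 5.77, 4.69 and 4.72 kb in shNC and 1.72, 1.52 and 1.82 kb in shTDP43, and the region chr16:85548630-85576234 had 25.7, 25.6 and 25.6 kb and 17.6, 22.3 and 24.7 kb. Both lay inside the gene span but upstream of the listed start whose window is printed above. Their positions from that start were -93.7 to -87.5 kb and -64.7 to -37.1 kb. Without scaling the limma adjusted p-values of the 7 bins lay between 0.158 and 0.991, except that of the DBNDD1 bin, which still passed at 0.0448.

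The bins of chromosomes 16 and 20 were also set beside bins of like cover. Among bins with over 20% of their length covered, the median log2 change was 0.11 in 14 bins of chromosomes 16 and 20 and 0.064 in 150 bins of the other autosomes. Among bins with under 2% it was 0.00041 in 25 bins and -0.080 in 609. Both chromosomes were picked for a higher shTDP43 share in these libraries, so nothing is read from their higher medians. Well-covered bins had more positive changes on all autosomes, so the cover of a bin moved with its change.

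**Figure D4:**
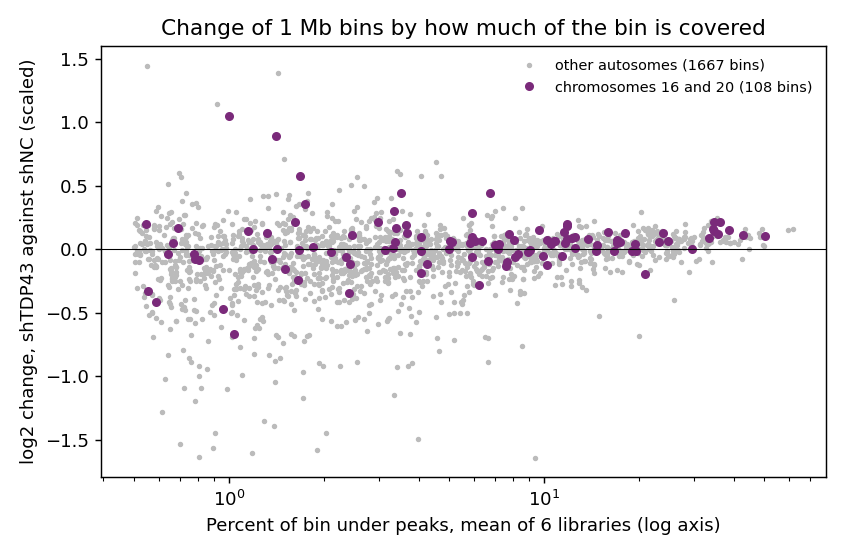
log2 change of scaled covered length (shTDP43 against shNC) of each tested 1 Mb autosomal bin against the percent of the bin under peaks, on a log axis. Purple points are the 108 bins of chromosomes 16 and 20 and grey points those of the other autosomes. Bins over 20% covered sit mostly above 0, with medians of 0.11 and 0.064. Both lie below the 0.20 that equal cover in all 6 libraries takes from the scaling.

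Of 1391 coding genes on both chromosomes, 935 had a peak in all 6 untreated libraries within the gene span or 1 kb of its ends, and 330 had none. The same test per gene (12808 genes with at least 500 bp covered on average, 975 of them on chromosomes 16 and 20) called 3 genes with more cover in shTDP43, LUC7L, SPIRE2 and RIPOR3, and 0 with less. Over all genes tested, 0.172% were called with more cover and 0.75% with less. At an unadjusted p under 0.05, 52 of the 975 genes of chromosomes 16 and 20 had more cover and 36 less, beside 490 and 984 of all 12808 genes. Positive changes were found in 67.4% of the 975 genes and in 56.5% of all genes tested. The median log2 change was 0.13 on chromosome 16 and 0.060 on chromosome 20, beside 0.046 over all genes tested. For both chromosomes together it was 0.10, and without shTDP43 replicate 1 it was 0.037, beside 0.028 over all genes. Equal cover in all 6 libraries appears as a change of 0.20 after scaling to the library totals. Without shTDP43 replicate 1 the calls were 8 and 6, and without scaling 0 and 1. Leaving out any other library gave 0 or 1 gene with more cover and 0 to 3 with less.

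LUC7L, a gene for a splicing factor bound to the U1 snRNP, lies at chr16:188990-229449. Its covered length was 2.56, 2.19 and 2.64 kb in shNC and 4.52, 7.27 and 8.10 kb in shTDP43, with no overlap (log2 change 1.55 ± 0.17, limma adjusted p = 0.0067). The start-site region, whose promoter window is printed above, had 1.77 kb in each of the 6 libraries. All of the difference therefore lay downstream of it. A region 34.9 to 37.9 kb past the start had 0.489, 0 and 0.385 kb in shNC and 0.375, 2.30 and 3.02 kb in shTDP43. Another, 22.98 to 25.4 kb past the start, had 0, 0 and 0.480 kb and 0.864, 1.35 and 1.86 kb. The call of LUC7L was lost without shNC replicate 1 (limma adjusted p = 0.0529), without scaling (0.324) and with peaks of −log10 q of at least 5 (0.394).

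Several neighbours of LUC7L carried no cover. Of 15 genes around the alpha-globin cluster, 7 had no peak, among them NPRL3, which holds the globin enhancers, the haemoglobin genes HBZ, HBM and HBA1, and POLR3K. Of the 6 that could be tested, LUC7L was the 1 called, and all 6 had positive changes with a median of 0.29. AXIN1, a scaffold of the Wnt pathway, had 15.8, 15.5 and 10.5 kb in shNC and 8.84, 23.4 and 16.9 kb in shTDP43, which overlap. FAM234A had 14.1, 13.04 and 10.2 kb and 11.3, 13.7 and 13.2 kb.

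SPIRE2, which encodes an actin nucleator of vesicle transport, lies at chr16:89828475-89871319. It had 18.5, 17.2 and 16.3 kb in shNC and 17.03, 24.5 and 23.01 kb in shTDP43 (log2 change 0.49 ± 0.078, limma adjusted p = 0.0344). Before scaling, shTDP43 replicate 1 lay within the shNC range. The region at its start had 3.96, 3.58 and 3.29 kb and 3.58, 3.79 and 3.58 kb. The region that covered its 3′ part and ran past its end, 33.9 to 46.4 kb from the start, had 10.2, 9.54 and 8.53 kb and 9.57, 11.5 and 11.6 kb. FANCA, the adjoining gene of the Fanconi anaemia DNA repair pathway, had 16.9, 12.6 and 11.9 kb in shNC and 15.97, 21.2 and 17.9 kb in shTDP43 and missed the threshold (log2 change 0.61 ± 0.13, limma adjusted p = 0.0893). FANCA was chosen after its values were seen.

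RIPOR3 lies at chr20:50586108-50691542 and its window overlaps that of PTPN1, a tyrosine phosphatase gene. It had 11.9, 13.4 and 11.6 kb in shNC and 13.25, 18.3 and 18.6 kb in shTDP43 (log2 change 0.62 ± 0.10, limma adjusted p = 0.0373), and shTDP43 replicate 1 lay just below the highest shNC value. Most of this cover was far from the listed start, in a region 37.9 to 51.6 kb downstream with 11.9, 12.4 and 11.22 kb and 11.3, 13.7 and 13.7 kb. A region 32.1 to 35.5 kb downstream had 0, 1.02 and 0 kb in shNC and 1.62, 3.03 and 3.16 kb in shTDP43, so it was longer in each shTDP43 library. The calls of SPIRE2 and RIPOR3 were each lost when any 1 of the 3 shNC libraries or shTDP43 replicate 2 or 3 was left out, with limma adjusted p-values of 0.0616 to 0.215 for SPIRE2 and 0.0799 to 0.204 for RIPOR3. Both were also lost without scaling (limma adjusted p = 0.739 and 0.649), with peaks of −log10 q of at least 5 (0.170 and 0.0826), and without a variance trend (0.147 and 0.139).

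**Figure D5:**
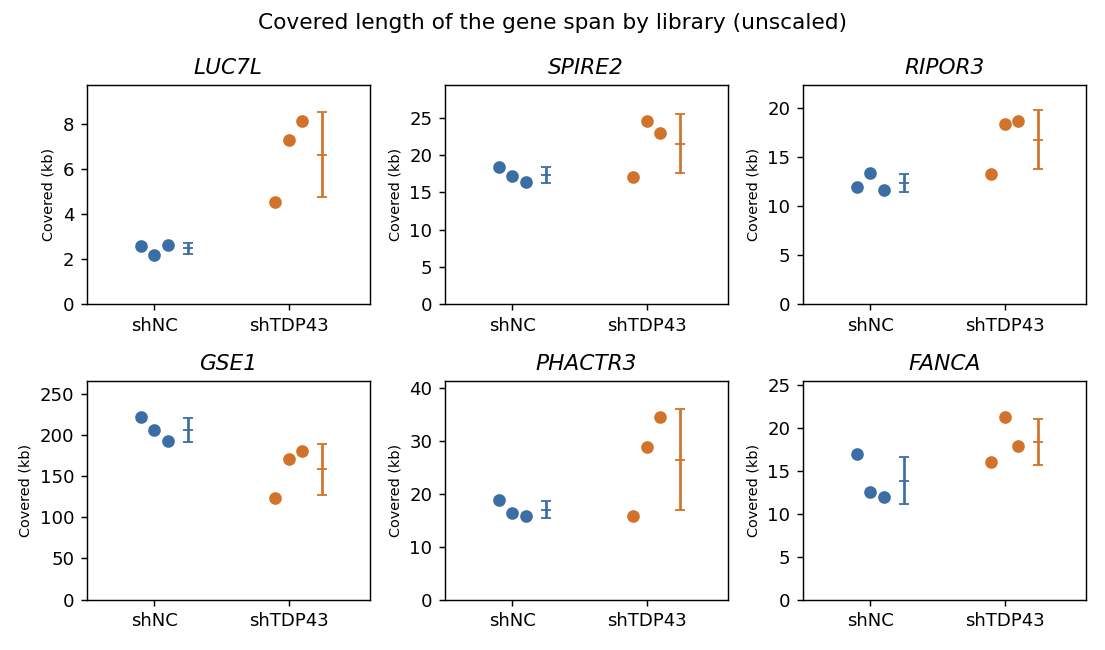
Covered length (kb, unscaled) of 6 genes in each untreated library, with the group mean ± SD (n = 3) beside the points. LUC7L rises from 2.19 to 2.64 kb in shNC to 4.52 to 8.10 kb in shTDP43, while GSE1 lies lower in every shTDP43 library.

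GSE1, at chr16:85169512-85676200, held 222, 206 and 193 kb in shNC and 123, 170 and 181 kb in shTDP43, the longest cover of any gene named here. Its log2 change of -0.21 ± 0.040 just missed the threshold (limma adjusted p = 0.0663), while its bin passed. Without shTDP43 replicate 1 the gene passed as well (limma adjusted p = 0.0432). It also passed with a pseudocount of 1000 bp (limma adjusted p = 0.0401) and with equal peak numbers (0.0350). In 10 of 13 alternative settings GSE1 did not pass. PHACTR3, a regulator of protein phosphatase 1 and actin at chr20:59577509-59847711, had 18.9, 16.3 and 15.9 kb in shNC and 15.9, 28.9 and 34.5 kb in shTDP43. Its change of 0.76 ± 0.14 did not pass at the main settings (limma adjusted p = 0.0622) and did without shTDP43 replicate 1 (0.92, limma adjusted p = 0.00817). With all libraries it passed with a pseudocount of 1000 bp (limma adjusted p = 0.0366) and with equal peak numbers (0.0145). In 10 of 13 alternative settings PHACTR3 did not pass. The library shTDP43 replicate 1 had the lowest PHACTR3 cover of the 6, while the other shTDP43 libraries lay above all shNC libraries.

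Other genes with less cover in shTDP43 did not pass the test and were chosen after their values were seen. ZNF469, a zinc finger gene linked to the cornea, had 28.5, 29.3 and 17.5 kb in shNC and 1.30, 9.23 and 5.75 kb in shTDP43, with no overlap (log2 change -2.35 ± 0.50, limma adjusted p = 0.0893). CRNKL1, a spliceosome component gene, had 6.49, 6.21 and 5.99 kb and 1.70, 3.44 and 3.74 kb (log2 change -0.94 ± 0.19, limma adjusted p = 0.0759). PLCB1, a phospholipase C gene of neurons, had 2.01, 2.25 and 1.62 kb in shNC and is listed at 0 in all shTDP43 libraries (limma adjusted p = 0.0779). CRNKL1 and ZNF469 passed without shTDP43 replicate 1 (limma adjusted p = 0.0256 and 0.0377), as did PLCB1 (0.0308), and ZNF469 also passed without shTDP43 replicate 2 (0.0260). Of 13 alternative settings, CRNKL1 did not pass in 11, ZNF469 in 9 and PLCB1 in 8. All 3 genes were lower in each shTDP43 library than in any shNC library.

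The long genes of both chromosomes were covered in part only. Of 18 listed for chromosome 16, 11 could be tested, 7 of these had negative changes, the median was -0.21 and 0 were called by limma (0 more and 2 less at an unadjusted p under 0.05). RBFOX1, a neuronal splicing regulator gene, and GRIN2A, an NMDA receptor subunit gene, had no peak. ZNF423, a neural zinc finger gene, had 95.1, 77.2 and 77.02 kb in shNC and 51.7, 76.6 and 80.6 kb in shTDP43. Of 20 listed for chromosome 20, 12 could be tested, 7 were positive, the median was 0.12 and 0 were called by limma (3 more and 3 less unadjusted). SULF2, an extracellular sulfatase gene, had 56.7, 46.2 and 45.8 kb and 22.1, 39.7 and 42.5 kb (log2 change -0.37 ± 0.11, limma adjusted p = 0.246). CHD6, a chromatin remodeller gene, had 26.8, 22.1 and 21.996 kb and 6.64, 15.8 and 19.4 kb (log2 change -0.69 ± 0.23, limma adjusted p = 0.276). The log2 change was -0.24 for SULF2 and -0.40 for CHD6 without shTDP43 replicate 1. In both genes every shTDP43 library was below every shNC library before scaling, and neither passed the test.

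Gene groups of the well-covered bands showed small positive medians and few calls. In the recurrent deletion interval of the short arm of chromosome 16, 21 of 22 genes could be tested, 20 were positive, the median was 0.15 and 0 were called by limma, also unadjusted. This median lies near the 0.20 that equal cover takes from the scaling.

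At the long-arm end of chromosome 16, 17 of 25 matched genes could be tested, 15 were positive, the median was 0.19, and SPIRE2 was the 1 called. ANKRD11, a chromatin regulator gene, had 102, 83.3 and 82.2 kb in shNC and 64.2, 96.3 and 85.0 kb in shTDP43. At the long-arm end of chromosome 20, 41 of 52 matched genes could be tested, 37 were positive, the median was 0.19 and 0 were called by limma (6 more and 1 less unadjusted). CHRNA4, a nicotinic receptor subunit gene, had no peak there. Both long-arm-end medians lie near the 0.20 that equal cover takes from the scaling. Of 9 genes of the GNAS locus and other imprinted genes, all could be tested, 4 were positive, the median was -0.043 and 0 were called by limma (1 more and 1 less unadjusted). GNAS had 33.0, 29.7 and 31.7 kb in shNC and 29.9, 34.1 and 34.7 kb in shTDP43.

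Among the Iroquois genes and their neighbours on chromosome 16, 6 of 8 could be tested, 4 were positive, the median was 0.34 and 0 were called by limma (1 more and 1 less unadjusted). IRX3, a homeobox transcription factor gene, had 4.41, 4.41 and 3.25 kb in shNC and 5.09, 5.48 and 5.46 kb in shTDP43, which do not overlap (log2 change 0.61 ± 0.18, limma adjusted p = 0.203). RBL2, a retinoblastoma-family gene in the same list, had 7.95, 7.10 and 5.92 kb and 1.03, 4.98 and 5.87 kb. The metallothionein genes were nearly bare: 10 of 11 had no peak, and MT1X had 1.31, 0.727 and 2.15 kb in shNC and 0, 1.12 and 0.656 kb in shTDP43. Of 8 cadherin genes on the long arm, 5 had no peak, CDH1 among them. Of 18 neuronal genes of chromosome 20, 12 could be tested, 8 were positive, the median was 0.13 and 0 were called by limma, also unadjusted. SNAP25, a synaptic vesicle fusion gene, had 35.2, 32.9 and 33.9 kb in shNC and 24.7, 26.1 and 33.0 kb in shTDP43.

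Of 12 signalling and chromatin genes of the short-arm end of chromosome 16, 9 could be tested, all 9 were positive, the median was 0.14 and 0 were called by limma, also unadjusted. This median lies below the 0.20 that equal cover takes from the scaling. CREBBP, a histone acetyltransferase gene, had 38.7, 37.1 and 33.6 kb in shNC and 27.4, 38.9 and 40.2 kb in shTDP43. Of 19 growth and chromatin genes of the proximal long arm of chromosome 20, 15 could be tested, 9 were positive, the median was 0.045 and 0 were called by limma, also unadjusted. AHCY, which hydrolyses S-adenosylhomocysteine, had 34.1, 34.9 and 30.8 kb in shNC and 25.9, 34.2 and 33.5 kb in shTDP43. Of 20 transcription factor genes of chromosome 20, 8 had no peak, among them the endodermal FOXA2 and HNF4A. Of the 12 tested, 6 were positive, the median was -0.0031 and 0 were called by limma (2 more and 0 less unadjusted). MYBL2, a cell cycle transcription factor gene, had 19.5, 15.6 and 18.05 kb in shNC and 12.4, 16.2 and 18.3 kb in shTDP43. In CREBBP, AHCY and MYBL2 the genotypes overlapped.

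Few regions were private to a genotype. A peak in all 3 shTDP43 libraries and no shNC library was found in 27 regions (0.599%, 95% Wilson interval 0.412 to 0.870), and the reverse in 59 (1.31%, 1.02 to 1.68). Over all regions of the series the shares were 0.422% and 2.07%. The presence of peaks is related to the shares that picked the chromosomes, so nothing is read from this. The longest region of the first kind, chr20:37425432-37427960, had 2.46, 2.27 and 2.53 kb in shTDP43 and lies outside coding genes, next to a shared region in SRC, a tyrosine kinase gene. The longest of the second kind, chr20:8131025-8133939, across the low-coordinate end of the PLCB1 span, had 2.26, 2.49 and 1.86 kb in shNC. Of the 8 longest regions of the second kind, 4 lay in ZNF469.

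Regardless of genotype, the 6 libraries were also used to set chromosomes 16 and 20 against the other autosomes in 4 measures. Coding gene spans held 81.2% ± 0.375 of covered length on chromosomes 16 and 20 and 80.4% ± 0.340 elsewhere (SD, n = 6), higher in 6 of 6 libraries by 0.81 points. The median peak width was 749 ± 47.8 bp against 715 ± 38.8 bp, a difference of 34.3 bp in 6 of 6 libraries. Regions with a peak in all 6 libraries held 89.9% ± 3.20 against 87.1% ± 4.15, again higher in 6 of 6. Each of these 3 had a 2-sided exact permutation p of 0.03125, the smallest that 6 libraries can give, and 0.0417 after adjustment over the 4 measures. The p-values measure only how constant a difference was over libraries of the same cell line. The class of regions shared by all 6 is defined from these same libraries, so nothing is read from its p-value. The share within 1 kb of a gene end, 17.7% ± 0.850 against 17.6% ± 0.978, was higher in 4 of 6 libraries and did not pass (exact permutation p = 0.3125).

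Against the other gene-dense chromosomes the order turned. Compared with chromosomes 17, 19 and 22, chromosomes 16 and 20 had 0.32 points less cover in gene spans, a median peak width 94.1 bp shorter and 2.24 points less cover in regions shared by all 6 libraries, each in 6 of 6 libraries. The share at gene ends was 0.87 points higher, also in 6 of 6. The exact permutation p was 0.03125 for each of the 4, before and after adjustment. The limits given above for these p-values hold here too. Chromosomes 16 and 20 thus lay between the gene-dense chromosomes and the average of the other autosomes in gene-span cover, peak width and sharing.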

How the data were processed

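DRIP-seq peak lists of 8 libraries were used, 3 untreated and 1 RNase H-treated per genotype, called per library. MACS2 2.2.6, Bowtie2 2.4.4, SAMtools and hg38 are listed in the submitters' processing notes, without settings. The peak-calling control was not given in the sources used here. In the deposited lists each peak carries a fold ratio over background and −log10 p and −log10 q values. These were used only to rank or filter peaks and to solve for the background pileup, which gave a whole-number pileup for 99.5% to 99.9% of 2000 summits per library, within 0.001 of the deposited −log10 p. No file holds counts.

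The regions, genes and lists were chosen with earlier results of these data known. Covered length per 1 Mb bin, or per coding gene span plus 1 kb on each side, was scaled to the median library total. log2 was taken after adding 1 kb for bins and 100 bp for genes, and bins with a mean of at least 5 kb and genes with at least 500 bp went into limma 3.58.1 under R 4.3.3, eBayes with a variance trend, with Benjamini-Hochberg adjustment over all features. Lengths are printed unscaled. limma was tested on simulated data. Sign-flip permutation tests over libraries compared chromosomes 16 and 20 with other autosomes. Overlap meant 1 bp or more. RefSeq GRCh38.p14 gave gene spans without exons or introns, so positions are gene spans, gene ends and distances to listed starts, and bands are given as Mb bins. Overlapping genes share peaks.

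Named were genes that passed (up to 10 per direction), the 2 genes with the longest cover in the 5 bins with the largest share, rise or fall, and the 3 best-covered and all called members of each list. Genes outside this rule are marked. Some named genes and 1 list are not reported here. Of 1391 coding genes on both chromosomes, 995 had a promoter entry; PHACTR3, ZNF469 and PLCB1 did not. Under their list symbols 1 gene of each long-arm-end list did not match a coding gene.

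Alternatives were scaling, pseudocount, filter, peak threshold, equal peak numbers, bin offset, variance trend, replicate block, reference chromosomes, RNase H overlap and leaving out each library.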

Additional observations from a re-analysis of the deposited data

How the results depend on the processing

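Leaving out 1 library at a time gave 0 to 8 genes with more cover in shTDP43 and 0 to 6 with less, and 1 to 18 bins with more and 0 to 2 with less; the high counts came without shTDP43 replicate 1. It moved the share difference between 0.23 and 0.39 points for chromosome 16, 0.13 and 0.17 for chromosome 20 and 0.39 and 0.55 for both. The 4 measures against the other autosomes ranged from 0.78 to 0.83 points, 0.064 to 0.17 points, 31.7 to 36.4 bp and 2.42 to 3.15 points, and 5 libraries cannot give a p under 0.0625. Against chromosomes 17, 19 and 22 gene-span cover turned to -0.32 points, peak width to -94.1 bp and sharing to -2.24 points, and gene-end cover became 0.87 points. Peaks of −log10 q of at least 5 turned gene-end cover to -0.069 points (exact permutation p = 0.5 after adjustment).

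Genes called with more and less cover were 0 and 1 without scaling, 4 and 5 with a pseudocount of 1000 bp, 3 and 1 without a filter, 1 and 0 with the stricter peaks, 6 and 1 with equal peak numbers, and 1 and 2 without a variance trend. Bins were 1 and 0 without scaling, 4 and 2 without a filter, 1 and 0 with the stricter peaks, 10 and 1 with equal peak numbers, and 2 and 0 with bins shifted by 0.5 Mb. A pseudocount of 10 kb left them at 6 and 1. The cause of these changes was not tested. Without scaling the median of all genes went from 0.046 to -0.15 and that of chromosomes 16 and 20 from 0.10 to -0.088. Single bins were not followed when bins were shifted. In the other settings, no log2 change printed for a gene or bin turned its sign.

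The chromosome 20 difference was 0.23 points by peak number, 0.12 with the stricter peaks and 0.010 without peaks also called after RNase H, where the difference for both chromosomes was 0.27. By peak number the chromosome 16 difference was 0.27 points and the genotypes overlapped. The regions numbered 7244 when present in at least 1 library and 2840 with peaks up to 1 kb apart merged.

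With the replicate number as a block, 1 gene had more and 1 less cover, and 2 bins had more and 0 less; SPIRE2 and RIPOR3 were not called (limma adjusted p = 0.157 and 0.126). The labels share the numbers 1 to 3, but same-numbered libraries did not deviate together (correlations of -0.17, 0.062 and -0.17 over genes), so the numbers are not taken to pair the libraries. The untreated library with the lowest background pileup was shTDP43 replicate 1, and the part of depth in these values was not tested.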
